A study of Homo sapiens with 3 samples.

Results

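ATF4 is a transcription factor that cells make more of when amino acids run short or proteins misfold, and the genes described here are its amino acid response together with the cytosolic aminoacyl-tRNA synthetases. The members were 19 listed response genes and every gene whose symbol follows the pattern of a cytosolic synthetase, which added 18, so that there were 37 members among the 33423 genes found in any of the 3 libraries. All 37 had counts in every library.

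Single-cell RNA was sequenced by Drop-seq, in which a droplet joins 1 cell to 1 barcoded bead and each captured mRNA carries a unique molecular identifier (UMI). The libraries were made from 2 prostate cancer cell lines, VCaP and LNCaP, both labelled as sensitive to enzalutamide (ENZ), an antiandrogen. VCaP parental held VCaP cells kept 48 h in 0.1% DMSO, the vehicle. VCaP–ENZ48 held VCaP cells kept 48 h in 10 µM ENZ, and LNCaP–ENZ168 held LNCaP cells kept 168 h in 10 µM ENZ. VCaP cells grew in DMEM with 10% serum, and LNCaP cells in RPMI with 10% serum, alanyl-glutamine, pyruvate and added glucose. Each group had 1 library, so nothing below has a replicate check, no test was made, and intervals (95%) cover counting error only.

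When an amino acid is missing, its uncharged tRNA activates the kinase GCN2, which phosphorylates the initiation factor eIF2alpha. General translation then slows while the ATF4 mRNA is translated more, through short reading frames upstream of its coding sequence, so much of the control of ATF4 does not show in its mRNA level. ATF4 pairs with C/EBP proteins on the C/EBP-ATF response element and switches on genes that import amino acids, make serine, glycine, asparagine and proline, and load amino acids onto tRNA. In prostate cancer the pathway is known for its links to mTOR signalling.

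After filtering, 944 to 997 cells per library held 6313283 UMIs in LNCaP–ENZ168, 14301287 in VCaP–ENZ48 and 19515202 in VCaP parental, with medians of 5389, 11224 and 17817 UMIs per cell. ERG, which VCaP expresses from a gene fusion, was at 105 and 57.1 CPM (UMIs of a gene scaled to a library total of 1000000) in the VCaP libraries and at 0 in LNCaP–ENZ168, which leaves room for at most 0.475 CPM. KLK2, an androgen target, was at 1554 CPM in VCaP parental, 3053 CPM in VCaP–ENZ48 and 27.1 CPM in LNCaP–ENZ168. The 9 markers of leukocytes, fibroblasts, endothelium and basal cells that were found summed to at most 6.49 CPM per cell type and library. S and G2M genes took 1.51% of UMIs in VCaP parental, 0.286% in VCaP–ENZ48 and 0.635% in LNCaP–ENZ168, mitochondrial genes 6.24%, 7.49% and 8.94%. Of 1000 barcodes, 860 and 869 ended in an uncalled base in VCaP parental and VCaP–ENZ48, against 212 in LNCaP–ENZ168, and each pair of libraries shared 1 barcode.

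The response element was looked for in the promoters of the members, since it is the sequence through which ATF4 acts. RefSeq promoters (build GRCh38.p14, from 250 bases before to 50 bases after each start) were at hand for 29 members. Both strands were searched for TGATGNAA, for TGATGCAA, which is 1 form of it, and for the E-box CACGTG. TGATGNAA was found for 7 of 14 synthetases and 4 of 15 response genes (26.7%), against 4.46% of 27305 gene symbols and 3.62% of all 35116 promoters. TGATGCAA was found for 6 synthetases (42.9%) and 2 response genes (13.3%), against 1.08% of symbols and 0.866% of promoters. The E-box was found for ATF4, ALDH18A1, SLC7A5, SLC1A5 and IARS1, which is 4 response genes (26.7%) and 1 synthetase (7.14%), against 8.77% of symbols and 7.26% of promoters. PSPH, SHMT2, PYCR1, SLC7A11, LARS1, VARS1 and YARS1 had no entry. A match of letters is a description and not a bound site.

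The synthetase promoters that held TGATGNAA are shown first, since they belong to the group with the most members past the fold below, followed by 3 response genes. Capitals mark the motif on the strand of the gene, where TTGCATCA is TGATGCAA read on the other strand.
AARS1: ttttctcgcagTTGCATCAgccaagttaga
CARS1: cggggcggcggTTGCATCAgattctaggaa
GARS1: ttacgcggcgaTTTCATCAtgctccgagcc
IARS1: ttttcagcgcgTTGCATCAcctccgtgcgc
MARS1: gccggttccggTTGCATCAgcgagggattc
NARS1: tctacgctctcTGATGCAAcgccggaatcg
TARS1: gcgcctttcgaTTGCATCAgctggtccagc
CHAC1: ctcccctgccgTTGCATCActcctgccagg
ASNS: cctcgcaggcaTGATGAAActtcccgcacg
SLC3A2: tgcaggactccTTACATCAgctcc

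On the plus strand the windows lie at chr7:30594834-30594863 (GARS1), chr12:57488053-57488082 (MARS1), chr5:33440956-33440985 (TARS1), chr15:40953251-40953280 (CHAC1) and chr11:62881725-62881748 (SLC3A2). On the minus strand they lie at chr16:70289675-70289704 (AARS1), chr11:3057407-3057436 (CARS1), chr9:92293692-92293721 (IARS1), chr18:57621804-57621833 (NARS1) and chr7:97872458-97872487 (ASNS). In 5 of the 7 synthetases the motif began within 15 bases of the RefSeq start, at -2 in CARS1, -4 in MARS1, -13 in IARS1, 3 in TARS1 and 15 in NARS1. It began at -33 in GARS1, at the second of its listed starts, and at -187 in AARS1. The remaining match was at the third listed start of SLC1A5, at -97. Gencode spans begin elsewhere for some genes, as at chr5:33440696 for TARS1 and chr16:70289707 for AARS1, so these distances depend on the annotation.

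Levels below are CPM over all kept cells of a library. Ratios are log2 ratios of CPM + 1, given relative to the median gene, taken over all genes whose mean in the libraries compared was 10 CPM or more, and a gene was past the fold when it lay at least 1.5-fold from that median gene. Genes with a smaller mean were not counted. Intervals of ratios come from the counts without the added 1, so for genes of few counts the ratio lies off their centre. VCaP–ENZ48 enters both comparisons, so the comparisons are not independent.

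**Figure D1:**
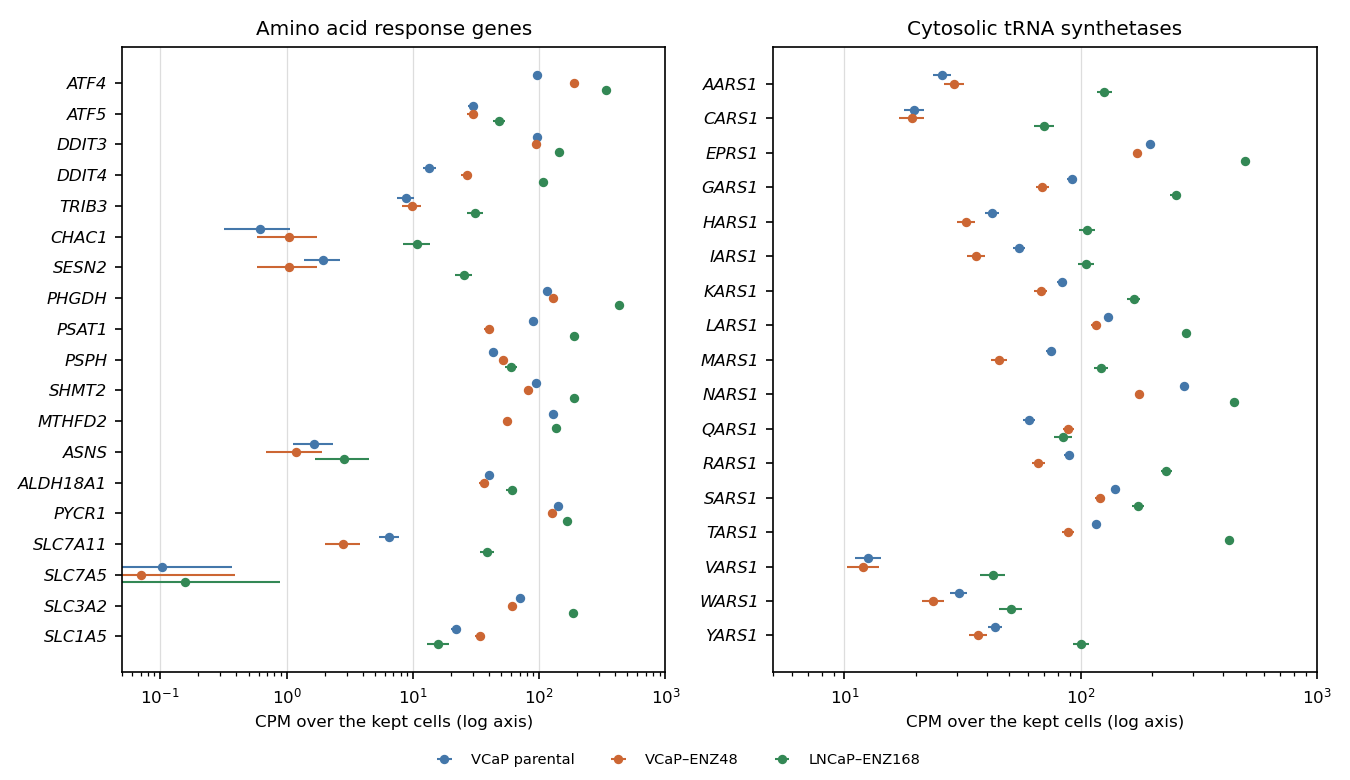
Level of each member named here (CPM over the kept cells, log axis) in the 3 libraries, with exact Poisson 95% intervals that run off the left edge for SLC7A5. For 16 of 17 synthetases shown LNCaP–ENZ168 is the highest of the 3 points, the exception being QARS1. These levels are not centred. In LNCaP–ENZ168 over VCaP–ENZ48 the median gene lay at 0.65 on the log2 scale. With no centring 53.1% of all genes were at least 1.5-fold higher there.

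The first comparison asks how 48 h of ENZ moved these genes in VCaP cells. ATF4 itself rose 2.03-fold relative to the median gene, while PSAT1 and MTHFD2, enzymes of serine synthesis and mitochondrial folate metabolism, fell 2.12-fold and 2.18-fold, so the response genes did not move as a block. Of the 19 response genes, 13 reached a mean of 10 CPM, and 3 of them rose and 2 fell past the fold. Over all 7729 genes, 17.5% rose and 15.0% fell past it. The median of the 13 genes was 0.04 on the log2 scale, and it turned negative under 3 other scalings, at -0.03 with no centring, -0.32 with TMM factors and -0.48 with median-of-ratios factors.

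Among the regulators, ATF4 (chr22:39519695-39522683) was at 96.0 CPM in VCaP parental and at 187 CPM in VCaP–ENZ48, a log2 ratio of 1.02 (0.94 to 1.12). The ratio was 0.66 with TMM factors and 0.51, inside the fold, with median-of-ratios factors. DDIT4, which restrains mTORC1 under stress, was at 13.5 and 26.6 CPM, a log2 ratio of 0.99 (0.81 to 1.28). The DDIT4 ratio changed sign under another choice of cells. In the 250 parental and 237 treated cells with the lowest share of S and G2M UMIs of their library it was at 28.9 CPM and 23.9 CPM, a log2 ratio of -0.12, while ATF4 was at 92.0 and 197 CPM, a ratio of 1.23. The share still differed between these cells, at 0.272% in VCaP parental and 0.121% in VCaP–ENZ48. DDIT3, the stress factor CHOP, and ATF5, a relative of ATF4 with a like translational control, stayed within the fold, at log2 ratios of 0.04 (-0.06 to 0.14) and 0.06 (-0.12 to 0.25).

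TRIB3, SESN2 and CHAC1 were too low to count. TRIB3, a pseudokinase that ATF4 and CHOP induce, was at 8.81 CPM in VCaP parental and 9.79 CPM in VCaP–ENZ48. SESN2, a leucine sensor that restrains mTORC1, was at 1.95 and 1.05 CPM, from 38 and 15 UMIs. CHAC1, which degrades glutathione, was at 0.615 and 1.05 CPM, from 12 and 15 UMIs. All 3 are known targets of ATF4, and the interval of each ratio between the VCaP libraries included 0.

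Of the enzymes of serine, glycine and folate metabolism, 2 of 5 fell and none rose past the fold. PSAT1 (chr9:78297125-78330093), which makes phosphoserine, was at 89.8 CPM in VCaP parental and at 39.9 CPM in VCaP–ENZ48, a log2 ratio of -1.09 (-1.24 to -0.97). MTHFD2 (chr2:74186172-74217565), the mitochondrial methylene tetrahydrofolate dehydrogenase, was at 129 and 56.0 CPM, a ratio of -1.13 (-1.26 to -1.03). The neighbouring steps of the same pathway stayed within the fold, with PHGDH, the first enzyme of serine synthesis, at 0.22, PSPH, the last, at 0.32, and SHMT2, which makes glycine from serine in mitochondria, at -0.13. In the cells with the lowest share of S and G2M UMIs PSAT1 was at 63.8 and 36.9 CPM (-0.63), MTHFD2 at 94.5 and 43.4 CPM (-0.96) and PHGDH at 78.3 and 118 CPM (0.72, past the fold). This choice of cells did not make the shares equal (0.272% in VCaP parental and 0.121% in VCaP–ENZ48). Beyond it, what part the smaller share of cycling cells in VCaP–ENZ48 had in these values was not tested.

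The proline enzymes ALDH18A1 and PYCR1 were within the fold, at -0.07 and -0.09. ASNS, asparagine synthetase and a standard readout of ATF4, had only 32, 17 and 18 UMIs in VCaP parental, VCaP–ENZ48 and LNCaP–ENZ168, and SLC7A5, the light chain of the leucine transporter LAT1, had 2, 1 and 1. In Gencode 44 a long noncoding RNA on the same strand covers 99.9% of ASNS, and whether this or another feature of the counting lowered either gene was not tested, so no fold is given for either.

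Of the transporters, SLC1A5, the glutamine carrier ASCT2, rose from 21.9 to 33.8 CPM, a log2 ratio of 0.67 (0.50 to 0.88) that was 0.31 with TMM factors and 0.15 with median-of-ratios factors. SLC3A2, the heavy chain that carries SLC7A5 and SLC7A11 to the membrane, was at -0.15. SLC7A11, the cystine carrier, was at 6.51 and 2.80 CPM, under the minimum, with a count ratio of -1.15 (-1.70 to -0.63) on the log2 scale.

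The synthetases lay close to the median gene and mostly below it. All 18 passed the minimum, 14 of them lay below the median gene, and the median was -0.20, but only MARS1 fell and only QARS1 rose past the fold. MARS1, the methionine enzyme, was at 75.0 and 45.3 CPM, a log2 ratio of -0.65 (-0.80 to -0.53), and QARS1 (chr3:49095932-49105130), the glutamine enzyme, at 60.6 and 88.8 CPM, a ratio of 0.61 (0.50 to 0.73). NARS1, for asparagine, lay just inside the fold at 1.48-fold and IARS1, for isoleucine, at 1.44-fold, against 1.57-fold for MARS1 and 1.53-fold for QARS1 just past it. Among the barcodes that end in a called base MARS1 was at -0.42 and QARS1 at 0.63.

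How many synthetases fell depended on the scaling. The ratios above were centred on -0.07, the median gene, whereas TMM factors centred them on 0.29 and median-of-ratios factors on 0.45. Both of these centres are higher, so they could only move the synthetases further down and do not check the side of the group. With a minimum of 50 CPM the centre was -0.23. The synthetase median then lay nearer the median gene, though still below it. With TMM factors 9 synthetases fell and 0 rose, where 33.5% of all genes fell and 9.85% rose, and their median was -0.56. With median-of-ratios factors 14 fell and 0 rose, where 44.7% of all genes fell and 7.83% rose, and their median was -0.72. Which scaling is the truer one cannot be told from 1 library per group.

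**Figure D2:**
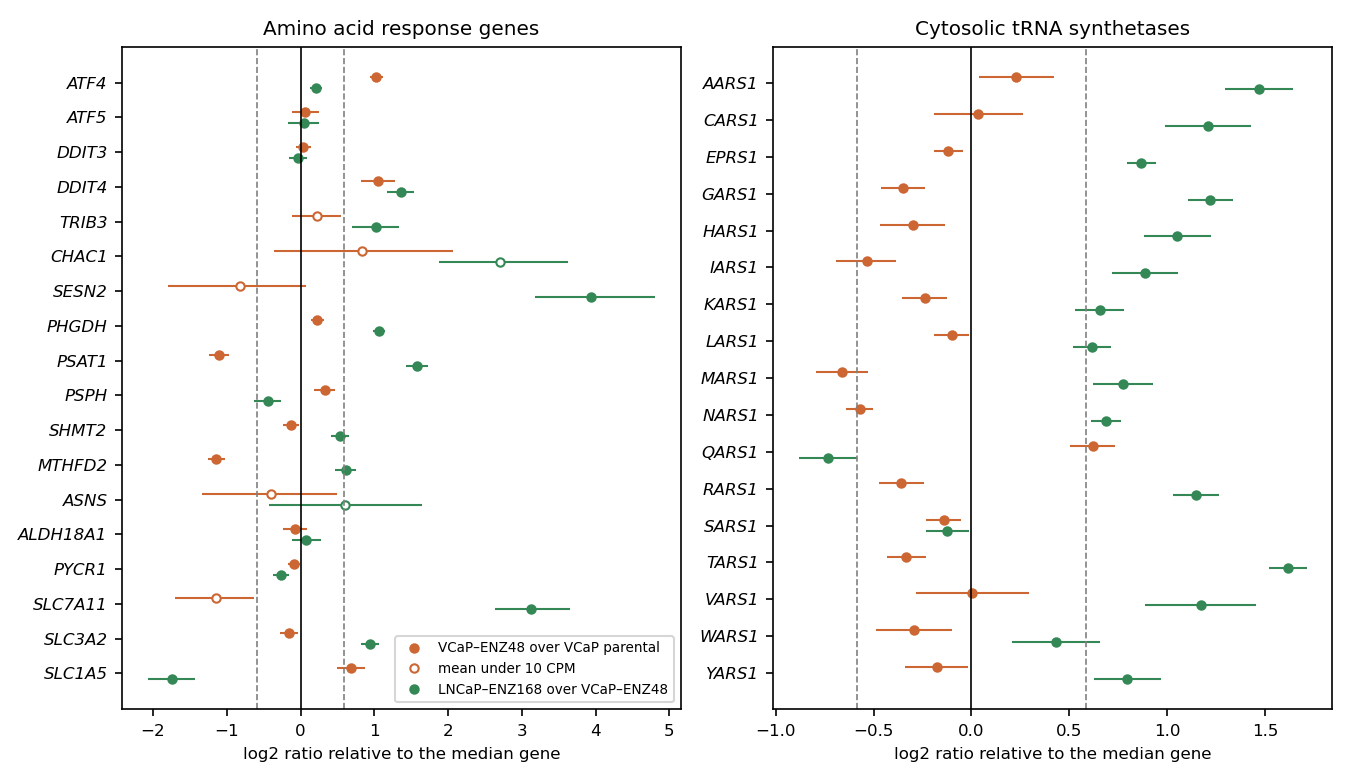
Log2 count ratio of each member named here relative to the median gene (0), without a pseudocount, in VCaP–ENZ48 over VCaP parental and LNCaP–ENZ168 over VCaP–ENZ48, with exact conditional 95% intervals and dashed lines at 1.5-fold. In the VCaP pair 13 of 17 synthetases shown lie left of 0 and in LNCaP–ENZ168 15 of 17 lie right of it; the panels have different axes, SLC7A5 is left out, and open points have a mean under 10 CPM.

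The second comparison sets both lines side by side under ENZ. Line, medium and length of treatment differ together between LNCaP–ENZ168 and VCaP–ENZ48 and cannot be told apart, and the median gene lay at 0.65 on the log2 CPM scale, so only ratios relative to it are given. These libraries also differ in depth, in barcodes that end in an uncalled base and in S and G2M share, as given above. LNCaP–ENZ168 had higher levels of 14 of 18 synthetases and of 8 of 16 counted response genes, and lower levels of 1 synthetase and 1 response gene. Over all 8854 genes 26.8% were higher and 28.1% lower past the fold.

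For the synthetases the median was 0.82 on the log2 scale. TARS1 (chr5:33440696-33468091), the threonine enzyme, was furthest, at 426 CPM in LNCaP–ENZ168 with 88.5 CPM in VCaP–ENZ48 and 117 in VCaP parental, a log2 ratio over VCaP–ENZ48 of 1.60 (1.52 to 1.71). AARS1, for alanine, was at 126 CPM against 29.0 CPM (1.43, 1.29 to 1.64), and GARS1, whose gene also encodes the mitochondrial glycine enzyme, at 253 against 68.9 CPM (1.20, 1.10 to 1.34). These 3 lay between 2.31-fold and 3.03-fold above the median gene.

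CARS1, RARS1, VARS1 and HARS1, for cysteine, arginine, valine and histidine, were at 1.15, 1.13, 1.09 and 1.02. EPRS1, which joins the glutamate and proline enzymes in 1 chain, was at 0.86, IARS1 at 0.86, YARS1 for tyrosine at 0.77, MARS1 at 0.75 and NARS1 at 0.68. KARS1, which like GARS1 serves both compartments, was at 0.64 and LARS1, the leucine enzyme that also senses leucine for mTORC1, at 0.61, just past the fold at 1.53-fold.

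WARS1 for tryptophan and SARS1 for serine stayed within the fold, at 0.40 and -0.13. QARS1 was the 1 synthetase that was lower, at 84.1 CPM against 88.8 CPM and a log2 ratio of -0.73 (-0.88 to -0.59). On CPM with no centring that ratio was -0.08 and inside the fold, as was the ratio over VCaP parental, at -0.11.

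The 6 synthetases with TGATGCAA in their promoter lay between 0.68 and 1.60 with a median of 1.01, and the 8 without it between -0.73 and 1.20 with a median of 0.75. In the VCaP pair the same 6 lay between -0.65 and 0.22, with a median of -0.43, and the 8 between -0.35 and 0.61, with a median of -0.26. The ranges overlapped in both comparisons.

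Among the regulators, ATF4 was at 339.8 CPM in LNCaP–ENZ168, a log2 ratio over VCaP–ENZ48 of 0.20 (0.12 to 0.29), within the fold, while several of its targets were past it. Over VCaP parental the ATF4 ratio was 1.24. SESN2 was at 25.3 CPM from 160 UMIs, a log2 ratio of 3.03. Its count ratio, without the added 1, was 3.94 (3.17 to 4.81) on the log2 scale. DDIT4 was at 107 CPM, 2.49-fold above the median gene (1.32, 1.17 to 1.54), and TRIB3 at 31.2 CPM, a log2 ratio of 0.92 (0.70 to 1.34). CHAC1 was at 10.8 CPM from 68 UMIs, under the minimum as a mean, with a count ratio of 2.71 (1.88 to 3.62). DDIT3 at 145 CPM (-0.03) and ATF5 at 48.2 CPM (0.02) lay at the median gene.

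Of the serine, glycine and folate enzymes, 3 of 5 were higher past the fold. PHGDH was at 427 CPM against 129.8 CPM (1.05, 0.98 to 1.15), PSAT1 at 188 against 39.9 CPM (1.55, 1.43 to 1.73) and MTHFD2 at 135 against 56.0 CPM (0.60, 0.47 to 0.75). PSAT1 and MTHFD2 were lowest of the 3 libraries in VCaP–ENZ48. Over VCaP parental PSAT1 was at 0.48, within the fold, and MTHFD2 at -0.51, on the other side of the median gene, whereas PHGDH was at 1.29. MTHFD2 was just past the fold at 1.51-fold, SHMT2 just inside it at 1.44-fold (187 CPM against 82.1 CPM), and PSPH was at -0.45.

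The proline enzymes again lay near the median gene, ALDH18A1 at 0.06 and PYCR1 at -0.27. Of the transporters, SLC7A11 was at 38.5 CPM against 2.80 CPM, from 243 and 40 UMIs. Its log2 ratio was 2.72 and its count ratio 3.13 (2.64 to 3.65). SLC3A2 was at 184 against 61.0 CPM (0.93, 0.81 to 1.07). SLC1A5 (chr19:46774883-46788594) went the other way, at 15.8 CPM against 33.8 CPM and a log2 ratio of -1.70 (-2.07 to -1.43). The cystine carrier and its heavy chain were thus higher and the glutamine carrier lower in the LNCaP library.

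On CPM with no centring, where 53.1% of all genes were higher and 15.0% lower, 13 response genes were higher past the fold. Among barcodes that end in a called base SESN2 had no UMI in VCaP–ENZ48, MTHFD2 was at 0.45 and NARS1 at 0.52, both inside the fold, and TARS1 at 1.61. With VCaP parental in place of VCaP–ENZ48, 9 synthetases were higher and 0 lower, with a median of 0.57, where 28.4% of all genes were higher and 30.2% lower.

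The genes around the members were read from lists of the same pathways. Beside the counts below, 17.5% of all genes rose and 15.0% fell past the fold in the VCaP pair. In LNCaP–ENZ168 26.8% were higher and 28.1% lower. Of 6 cytosolic subunits and scaffolds whose symbols fall outside the pattern, all lay below the median gene in the VCaP pair, 1 of them past the fold, and 2 were higher in LNCaP–ENZ168. Of 17 mitochondrial synthetases, 10 were counted in the VCaP pair, of which 1 fell and 0 rose. In LNCaP–ENZ168 14 were counted, of which 6 were higher and 4 lower, with CARS2 (-2.01) and NARS2 (-1.26) the furthest below the median gene, while their cytosolic counterparts CARS1 and NARS1 were above it.

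Of 21 other ATF4 targets and partners, 9 were counted in the VCaP pair, of which 3 fell and 0 rose. ATF3, a stress factor downstream of ATF4, fell from 48.5 to 14.7 CPM (-1.59, -1.88 to -1.44) and CEBPG, a C/EBP partner of ATF4, from 44.0 to 23.6 CPM (-0.80, -1.02 to -0.65). NUPR1, a stress-induced chromatin protein, was within the fold at 0.32. No counted gene of this list rose past the fold in VCaP–ENZ48, where 17.5% of all genes rose. Only 9 of its genes were counted and 12 were not, so little can be read from this beside the higher ATF4 mRNA.

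In LNCaP–ENZ168, 13 of that list were counted, of which 9 were higher and 1 lower. GDF15, a secreted stress cytokine, was at 588 CPM against 4.61 CPM (6.06, 5.99 to 6.71), ATF3 at 244 CPM against 14.7 CPM (3.31, 3.19 to 3.61) and PCK2, the mitochondrial PEP carboxykinase, at 89.8 CPM against 6.01 CPM (3.04, 2.92 to 3.59). NUPR1 was the 1 that was lower, at 277 against 585 CPM (-1.73, -1.81 to -1.66).

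Of 8 other serine, folate and proline enzymes, 5 were counted in each comparison. In the VCaP pair 1 fell, MTHFD1 of the cytosolic folate cycle (49.3 and 24.1 CPM, -0.94), and 0 rose, and in LNCaP–ENZ168 4 were higher and 0 lower. Of 9 eIF2alpha kinases, partners and phosphatase subunits, 8 were counted and none was past the fold in the VCaP pair. There IMPACT, a brake on GCN2, was at 0.47 and EIF2AK1, the kinase HRI, at 0.37. EIF2S1 was at -0.52, EIF2AK4 at -0.50 and PPP1R15A at -0.43, and 5 of the 8 lay below the median gene. In LNCaP–ENZ168 2 were higher, EIF2AK4 (0.94) and EIF2AK1 (0.76), and 2 lower, the kinase EIF2AK2 (-1.23) and the phosphatase subunit PPP1R15A (-0.87). EIF2AK4, the GCN2 gene, chosen after its values were seen, was at 49.7, 33.2 and 102 CPM in VCaP parental, VCaP–ENZ48 and LNCaP–ENZ168.

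**Figure D3:**
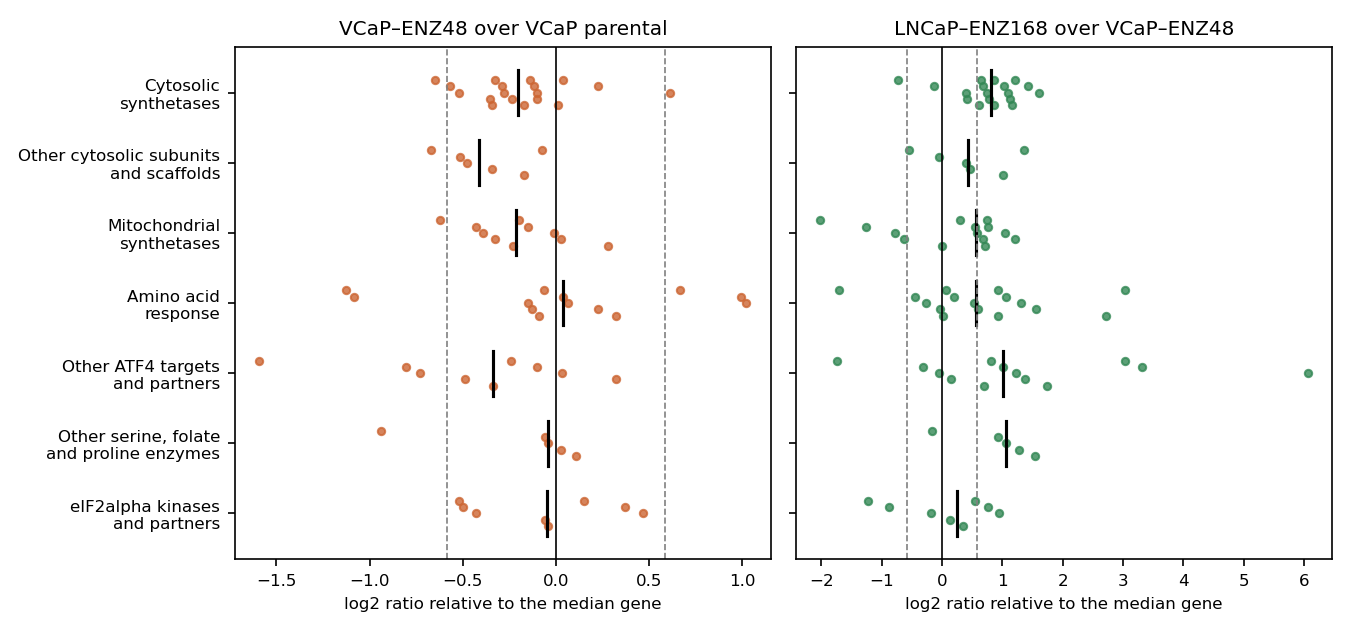
Log2 ratio of CPM + 1 relative to the median gene (0) for each counted gene of the members and of the related lists, in both comparisons; points are genes, offset within a list so that they can be seen, black bars are list medians and dashed lines mark 1.5-fold. The cytosolic synthetase median is -0.20 in the VCaP pair and 0.82 in LNCaP–ENZ168, and the furthest point, at 6.06, is GDF15; in the VCaP pair the response median of 0.04 turns negative with no centring and with TMM or median-of-ratios factors.

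Cells were then thinned to 2000 UMIs each, so that shares of cells with a UMI could be set side by side. The thinning left out 0 cells of VCaP parental, 30 of VCaP–ENZ48 and 1 of LNCaP–ENZ168. Each library held cells of 1 line, so no cell type lacking these genes could give the level of free RNA. ATF4 had a UMI in 17.7% of thinned cells in VCaP parental (exact Clopper-Pearson interval 15.3 to 20.2), 28.2% in VCaP–ENZ48 (25.3 to 31.3) and 44.6% in LNCaP–ENZ168 (41.4 to 47.9). The unthinned shares were 77.1%, 75.0% and 77.1%. The intervals cover the drawing of cells within 1 library and not replicates. Thinned shares are also not set against the median gene. Relative to it the log2 ratio of ATF4 in LNCaP–ENZ168 over VCaP–ENZ48 was 0.20, within the fold.

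PSAT1 had a UMI in 16.6% (14.4 to 19.1), 6.76% (5.22 to 8.58) and 28.2% (25.4 to 31.2) of thinned cells, in the same order, and in 73.0%, 35.4% and 59.9% of unthinned cells. TARS1 had a UMI in 19.9% (17.4 to 22.5), 14.9% (12.7 to 17.4) and 54.8% (51.6 to 58.0) of thinned cells, and in 82.4%, 57.1% and 86.0% unthinned. For all 3 genes the order of the thinned shares was that of their CPM.

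The members differed in how evenly they were spread over the cells of a library. For counts drawn at random the variance over the mean is 1, and its median over genes of at least 0.1 UMIs per thinned cell was 1.03 in VCaP parental, 1.06 in VCaP–ENZ48 and 1.05 in LNCaP–ENZ168. In LNCaP–ENZ168 PHGDH had 1.52 at a mean of 0.874 UMIs, where NARS1 had 1.09 at 0.896 UMIs and EPRS1 1.15 at 0.949 UMIs. DDIT3 (1.30), ATF4 (1.29), PSAT1 (1.29), DDIT4 (1.29) and MTHFD2 (1.24) also lay above 1.19, the 90th percentile of all such genes in that library. GARS1 was the 1 synthetase above that percentile, at 1.193 against 1.192. In VCaP parental PHGDH was at 1.02 at a mean of 0.200 UMIs, ATF4 at 1.03 and DDIT3 at 1.23, against a 90th percentile of 1.17. Of the 6 response genes named for LNCaP–ENZ168, DDIT3 alone lay above the 90th percentile in VCaP parental. Of the other members PYCR1 did, at 1.19. In VCaP–ENZ48 PHGDH was at 1.16 at a mean of 0.281 UMIs, MTHFD2 at 1.17 and DDIT4 at 1.31, against a 90th percentile of 1.25. DDIT4 had a mean of 0.0687 UMIs there, under the 0.1 UMIs of the genes behind that percentile. Since the means of PHGDH differ, its values are not a like comparison between libraries.

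To see whether the members followed the cell cycle, the cells of each library were divided at its median share of S and G2M UMIs. In VCaP parental the upper cells had 2.46% such UMIs and the lower 0.505%, in VCaP–ENZ48 0.448% and 0.146% and in LNCaP–ENZ168 1.05% and 0.253%. In VCaP parental 1 of 13 counted response genes was lower past the fold, no other response gene and no synthetase was past it, and 8.17% of all genes were higher and 2.56% lower in the upper cells. That gene was DDIT4, at 7.58 CPM in the upper and 19.8 CPM in the lower cells, a log2 ratio of -1.25 (-1.76 to -0.96). In VCaP–ENZ48 no member was past the fold, where 2.49% of all genes were higher and 0.669% lower, and DDIT4 was at 27.3 and 26.0 CPM.

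In LNCaP–ENZ168 3 of 17 counted response genes and 1 of 18 synthetases were higher and 1 response gene lower in the upper cells, against 6.31% and 2.55% of all genes. SLC1A5 had 76 UMIs in the upper and 24 in the lower cells (1.65, 1.10 to 2.50), PHGDH at 547 and 315 CPM (0.80, 0.69 to 0.91), SLC7A11 at 49.4 and 28.4 CPM (0.78, 0.42 to 1.19) and VARS1 at 53.6 and 32.4 CPM (0.72, 0.37 to 1.10). DDIT3 was at 113 CPM in the upper and 175 CPM in the lower cells (-0.62, -0.82 to -0.43), and in VCaP parental it was at 112 and 78.3 CPM (0.55, 0.42 to 0.69), inside the fold. MTHFD2 lay on the upper side in all 3 libraries, at 0.41, 0.42 and 0.58, as did PHGDH at 0.55, 0.21 and 0.80, always with intervals above 0. The synthetases stayed near the median gene, with medians of -0.01, 0.03 and 0.20 in VCaP parental, VCaP–ENZ48 and LNCaP–ENZ168.

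**Figure D4:**
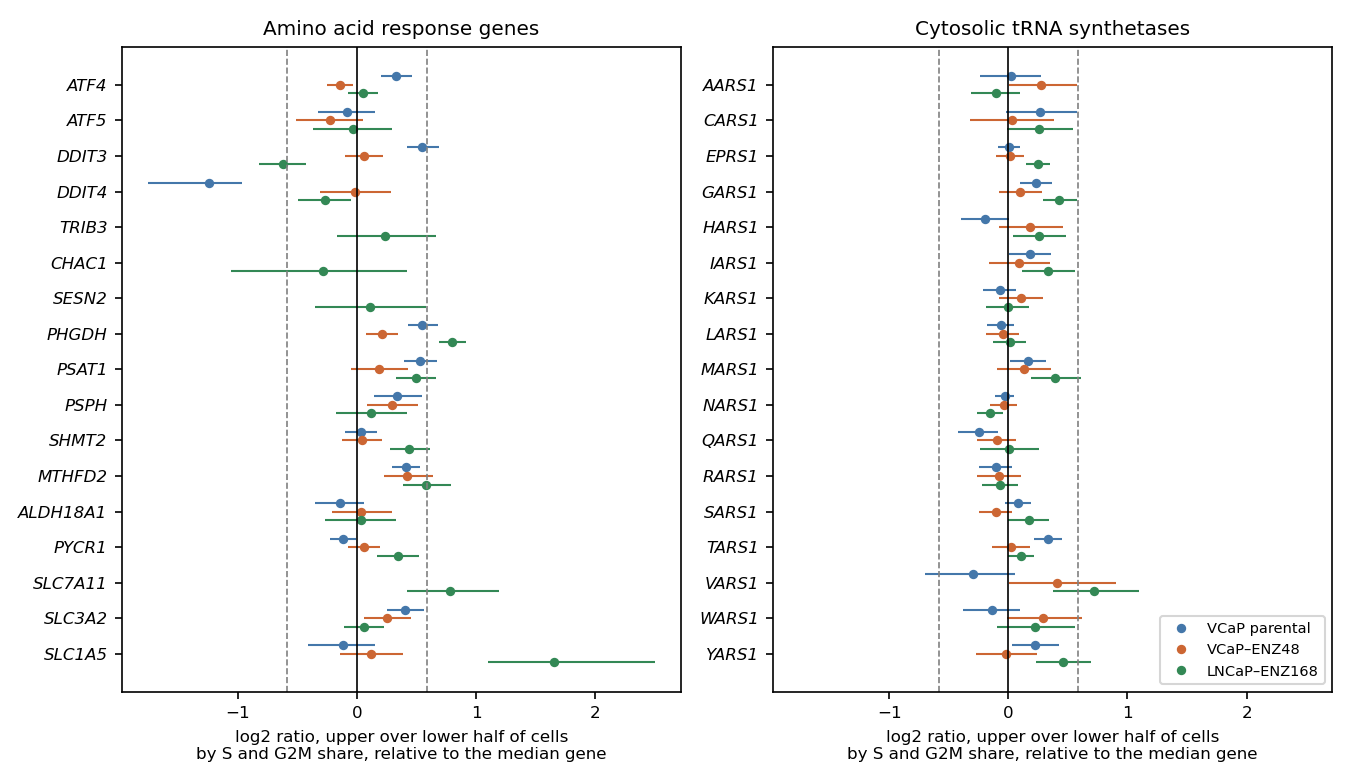
Log2 ratio of each member named here in the cells above over the cells below their library's median share of S and G2M UMIs, relative to the median gene (0), with exact conditional 95% intervals and dashed lines at 1.5-fold; genes under a mean of 10 CPM in a library are left out there. DDIT4 in VCaP parental lies furthest left (-1.25) and SLC1A5 in LNCaP–ENZ168 furthest right (1.65), while all synthetases shown but VARS1 in LNCaP–ENZ168 stay within the dashed lines.

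When cells were divided by depth or by mitochondrial share instead, 3 ratios were past the fold, all in VCaP–ENZ48, where 0.849% of all genes were higher and 1.32% lower by depth, and 0.81% higher and 0.899% lower by mitochondrial share. DDIT4 was lower in cells above the median depth (24.1 CPM against 36.9 CPM, -0.64), as was VARS1 (10.6 against 17.7 CPM, -0.74), and VARS1 was higher in cells above the median mitochondrial share (15.3 against 9.22 CPM, 0.75). No other member was past the fold by either measure in any library. Some members overlap genes on the opposite strand. DDIT3 and MARS1 share 982 bases where they end, and since the use of strand in counting is not given in the sources used here, their counts are uncertain to that extent.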

How the data were processed

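The authors processed the Drop-seq reads with the default pipeline of the Drop-seq tools, STAR and Picard on GRCh38 with Gencode annotation, set to expect 1000 cells from each sample. The files deposited hold UMI counts of genes by barcode, not normalized, and no cell filter is stated for them. Genes that a file does not list were set to 0.

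Barcodes under 300 genes or 500 UMIs, or above 25% mitochondrial UMIs, were left out, and doublets were not removed. UMIs were summed over the cells of a library and scaled to CPM. Ratios are log2((CPM + 1)/(CPM + 1)) minus the median gene, among genes whose mean reached 10 CPM, and a gene was past the fold at 1.5-fold from that median. The 95% intervals are exact Poisson for levels, exact conditional (from 2 Poisson counts) for ratios and exact Clopper-Pearson for shares. Those of ratios use no pseudocount and belong to the count ratio, which for GDF15 in LNCaP–ENZ168 over VCaP–ENZ48 was 6.34. Thinning drew 2000 UMIs per cell without replacement. For a count of 0 the upper end of the exact Poisson interval is given. The depth per library is given with the results.

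The groups follow the labels. With 1 library per group there was no test, since cells are not replicates. The members and lists were chosen with earlier results of these data known. Every member but 1, which enters the counts and medians but is not reported here by itself, was named, and of the related lists up to 3 genes furthest above and 3 furthest below the median gene per comparison, besides ERG and KLK2 as label checks. The genes of the eIF2alpha list past the fold in LNCaP–ENZ168 were also named, chosen after their values were seen. S and G2M genes are those of Seurat. The steps were tested on simulated data. Alternatives covered the cell filter, barcodes, cycling cells, weighting, thinning, scaling (TMM of edgeR, median-of-ratios of DESeq2, no centring), pseudocount, expression minimum and fold. Coordinates are from Gencode 44 on GRCh38, a later version than the authors used, and promoters from RefSeq on GRCh38.p14. Computations used Python 3.11.15, numpy 2.4.6, pandas 2.3.3, scipy 1.17.1, matplotlib 3.10.9, R 4.3.3, edgeR 4.0.16 and DESeq2 1.42.0.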

Additional observations from a re-analysis of the deposited data

How the results depend on the processing

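No paired analysis was possible because no group has more than 1 library, and for that reason no replicate could be left out. Depth limits the low members most, since ASNS, CHAC1, SESN2 and SLC7A5 rest on few UMIs. The cause of the shifts below was not tested beyond what each choice itself does. In the VCaP pair 1 synthetase rose and 1 fell past the fold, 3 response genes rose and 2 fell, and the list medians were -0.20 and 0.04. With barcodes of at most 3 times the median depth 0 synthetases rose and 2 fell, and with cells of equal weight also 0 and 2. With barcodes ending in a called base 0 synthetases fell, and with thinned cells 3. In the least cycling cells, of which VCaP parental had 12, 2 synthetases fell, 1 response gene rose and the response median was 0.20. With the 236 to 250 cells per library of lowest S and G2M share, chosen after seeing the data, 0 synthetases rose, 2 fell, the response median was 0.21 and DDIT4 was at -0.12. TMM factors gave 0 synthetases up, 9 down and medians of -0.56 and -0.32 (response). Median-of-ratios factors gave 0 up, 14 down and -0.72 for synthetases, and 0 up, 5 down and -0.48 for response genes. CPM with no centring gave 0 synthetases up and 3 down. A minimum of 1 CPM gave 0 synthetases up, 3 down, 4 response genes down and medians of -0.44 and -0.30 (response). With no minimum these were 0, 3, 4, -0.37 and -0.14. A minimum of 50 CPM left 0 synthetases down, 1 response gene up and a synthetase median of -0.070. At 2-fold 0 synthetases were past the fold either way and 1 response gene rose. Of all genes, 20.9% rose and 17.3% fell with thinned cells, 20.7% and 17.7% at 1 CPM, 12.9% and 7.81% with no minimum, 15.6% and 13.5% at 50 CPM, 8.97% and 6.03% at 2-fold, 22.9% and 18.1% in the least cycling cells, 17.5% and 11.6% in those of lowest share, 15.6% and 17.9% with no centring, 9.85% and 33.5% with TMM and 7.83% and 44.7% with median-of-ratios factors. With barcodes of at most 3 times the median depth it was 17.7% and 15.2%, with cells of equal weight 18.4% and 16.3%, and with barcodes ending in a called base 1475 and 1190 of 7748 genes. In LNCaP–ENZ168 over VCaP–ENZ48 the main counts were 14 synthetases and 8 response genes higher and 1 of each lower, with medians of 0.82 and 0.56. Barcodes ending in a called base gave medians of 0.67 and 0.41 (response), and those cells of lowest S and G2M share a response median of 0.38. Thinning gave 2 response genes lower. CPM with no centring gave 0 synthetases lower, 13 response genes higher and medians of 1.47 and 1.22 (response). A minimum of 1 CPM gave 0 synthetases lower and medians of 0.97 and 0.72 (response), and no minimum 0 synthetases lower, 14 response genes higher and medians of 1.41 and 1.12 (response). A minimum of 50 CPM left 0 response genes lower. At 2-fold 7 synthetases and 5 response genes were higher and 0 synthetases lower. Of all genes, 27.6% were higher and 28.8% lower with thinned cells, 53.1% and 15.0% with no centring, 29.2% and 32.8% at 1 CPM, 26.0% and 18.4% with no minimum, 24.9% and 27.0% at 50 CPM and 15.2% and 18.6% at 2-fold. With VCaP parental in place of VCaP–ENZ48, also chosen after seeing the data, 9 synthetases were higher, 0 lower, the synthetase median was 0.57 and MTHFD2 was at -0.51, where 28.4% of all genes were higher and 30.2% lower. Between the 236 most and 236 least cycling cells of LNCaP–ENZ168 the response median was 0.55, with 7 response genes and 6 synthetases higher past the fold in place of 3 and 1. The same choice in VCaP parental gave 4 response genes higher in place of 0, and in VCaP–ENZ48 1 response gene and 2 synthetases in place of 0. With it 12.2% (LNCaP–ENZ168), 12.4% (VCaP parental) and 6.59% (VCaP–ENZ48) of all genes were higher. Of 1116 single ratios of members under these alternatives, 2 that were past the fold changed sign, 409 others moved beyond their counting interval and 705 did not.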
